A study of Rattus norvegicus with 9 samples.

Results

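Cell division genes encode the proteins with which a cell copies its DNA and divides, and 39 of them, chosen from textbook knowledge with earlier results of these libraries known, were followed in rat primary hippocampal neurons. The table of 34092 genes held 37 of the 39, all annotated as protein coding, and the other two, E2f1 and Ccnb2, were not analysed here. One member, Cip2a, was selected on its fall with NPCT in these libraries, so its values against Control are given as a description with no test. The cultures came from hippocampi of rat fetuses on embryonic day 17 and were kept without mitotic inhibitors in neurobasal medium with B27 for 7 days in vitro. They then received vehicle (Control), 1 nM human aminoprocalcitonin (NPCT) or 1 nM human procalcitonin (PCT, the parent peptide of NPCT) for 24 h, with 3 libraries in each group. RNA was taken from pooled samples of biological triplicates according to the methods, whereas the labels number 3 replicates per group, so the p values measure the spread between libraries, which may be technical.

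Neurons have left the cell cycle for good, whereas the radial glia, glial progenitors and microglia that a fetal hippocampus also holds can still divide. A dividing cell passes G1, in which cyclin D and cyclin E drive it towards DNA synthesis, then S phase, in which the MCM helicase opens the DNA for copying, and then G2 and mitosis, in which the spindle parts the chromosomes before the cell splits. E2F factors switch on the S phase genes, and the DREAM and MuvB complexes act on a promoter element called CHR (cell cycle genes homology region), often beside CCAAT boxes, to keep the mitotic genes silent until G2.

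These promoter elements were read in the members themselves. The RefSeq promoters on GRCr8, from 250 bases before to 50 bases after the start site, covered 27 of the 37 genes. Entries for Ccnd1, Ccne2, Mcm4, Rrm2, Ccna2, Aurkb, Foxm1, Cip2a, Tpx2 and Ube2c were missing. For these shares only the first promoter of each gene symbol was read. The element CHR, spelled TTTGAA, occurred on either strand in 13 of 27 members (48.1%) against 18.2% of all 27457 such promoters. A CCAAT box, spelled CCAAT, occurred in 20 of 27 members (74.1%) against 37.7% of all. An E2F element, spelled TTTCGCGC, TTTGGCGC or TTTCCCGC, occurred in 7 of 27 members (25.9%) against 1.78% of all, namely Cdk1, Mcm2, Mcm3, Mcm5, Mcm6, Mcm7 and Tyms. A match of letters is a description of the window and was not tested as a binding site.

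The promoters of 4 members are printed 5′ to 3′, chosen after the values were known. They are those of the longest members whose NPCT libraries all lay below the controls, Cenpf and Mki67, and of the replication genes whose NPCT libraries all lay above them, Mcm2 and Mcm7. Capitals mark every match of the 3 elements, with ATTGG as CCAAT and GCGGGAAA or GCGCGAAA as an E2F element of the opposite strand.
Cenpf (chr13:103760837-103761136, minus strand): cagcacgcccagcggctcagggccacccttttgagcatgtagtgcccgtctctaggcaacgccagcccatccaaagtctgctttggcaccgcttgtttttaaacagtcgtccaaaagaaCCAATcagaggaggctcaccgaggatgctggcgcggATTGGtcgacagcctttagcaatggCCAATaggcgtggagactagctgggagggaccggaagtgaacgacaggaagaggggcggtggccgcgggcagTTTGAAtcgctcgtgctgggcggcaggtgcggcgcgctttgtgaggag
Mki67 (chr1:199952544-199952843, minus strand): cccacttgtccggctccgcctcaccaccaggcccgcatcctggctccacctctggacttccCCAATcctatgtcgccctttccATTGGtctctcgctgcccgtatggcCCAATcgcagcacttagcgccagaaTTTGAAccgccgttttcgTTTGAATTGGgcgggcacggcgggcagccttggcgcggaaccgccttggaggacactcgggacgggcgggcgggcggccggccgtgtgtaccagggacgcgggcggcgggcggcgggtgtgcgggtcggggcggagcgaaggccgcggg
Mcm2 (chr4:122918045-122918344, minus strand): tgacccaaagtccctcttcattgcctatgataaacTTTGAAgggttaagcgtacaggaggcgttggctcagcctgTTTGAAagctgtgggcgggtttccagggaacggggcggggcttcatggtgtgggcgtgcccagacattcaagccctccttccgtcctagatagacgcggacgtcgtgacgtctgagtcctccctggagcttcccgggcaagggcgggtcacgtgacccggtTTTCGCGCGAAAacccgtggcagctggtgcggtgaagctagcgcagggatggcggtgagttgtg
Mcm7 (chr12:22163129-22163428, minus strand): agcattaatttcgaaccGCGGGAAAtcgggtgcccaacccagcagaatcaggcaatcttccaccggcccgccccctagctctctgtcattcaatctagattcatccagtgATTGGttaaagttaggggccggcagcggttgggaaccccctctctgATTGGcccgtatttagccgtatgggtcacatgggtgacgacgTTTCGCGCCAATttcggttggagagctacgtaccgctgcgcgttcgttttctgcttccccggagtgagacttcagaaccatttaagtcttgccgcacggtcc
The Cenpf window holds CHR with CCAAT boxes on both sides of the DNA and no E2F letters, and so does that of Mki67, where the second CHR overlaps a CCAAT box of the opposite strand. The Mcm2 window holds CHR and a pair of E2F matches that overlap each other, and the Mcm7 window holds CCAAT boxes and E2F letters, one of them overlapping a CCAAT box.

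The deposited values are FPKM, fragments scaled to gene length and to the fragments mapped in a library, and fragments recovered from them summed to between 13573056 and 17211642 per library. Differences were fitted with limma on log2(FPKM + 0.1) over all 9 libraries in the 15958 genes whose FPKM averaged 0.5 or more. A DEG (differentially expressed gene) had to change by more than 1.5-fold at an adjusted p (Benjamini-Hochberg) no higher than 0.05. All comparisons share libraries, since each group enters 2 of them. With 3 libraries against 3, the smallest p that exact permutation of the labels can reach for one value is 0.1. A pair of libraries stood apart within their groups. The chi-square of fragments over genes per degree of freedom was 4.16 to 4.97 between controls, but 10.6 and 10.8 between NPCT replicate 3 and the other NPCT libraries (4.38 between those) and 18.9 and 21.6 between PCT replicate 3 and the other PCT libraries (6.38 between those). Many of the values that either library moved are given without it too.

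All 37 members passed the filter on low values. Their mean over the 9 libraries ranged from an FPKM of 2.47 for Cip2a, at the 23.0th percentile of the genes tested, to 67.7 for Pcna, at the 92.6th, and a member had between 65 and 2433 fragments in a library. Mki67, whose protein coats mitotic chromosomes and is the usual stain for cycling cells, lay at the 45.4th percentile. Among markers of the cells such a culture can hold, the neuronal gene Stmn2 had an FPKM of 756 ± 12.5 (SD, n = 3) in Control, the radial glial gene Fabp7 1902 ± 66.5, the astrocyte gene Gfap 775.7 ± 48.1, the oligodendrocyte lineage gene Olig1 271.5 ± 11.3 and the microglial gene C1qb 7.52 ± 0.864. The endothelial markers were near 0, with Kdr the highest at 0.936 ± 0.0889 and Cldn5 listed at 0 in all 9 libraries, and the highest of the pericyte and fibroblast markers, Thy1, which neurons also express, had 31.3 ± 2.57. In these bulk samples, fewer cells of a type and less RNA per cell cannot be told apart. Which cells the division genes or the markers came from was not measured.

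**Figure D1:**
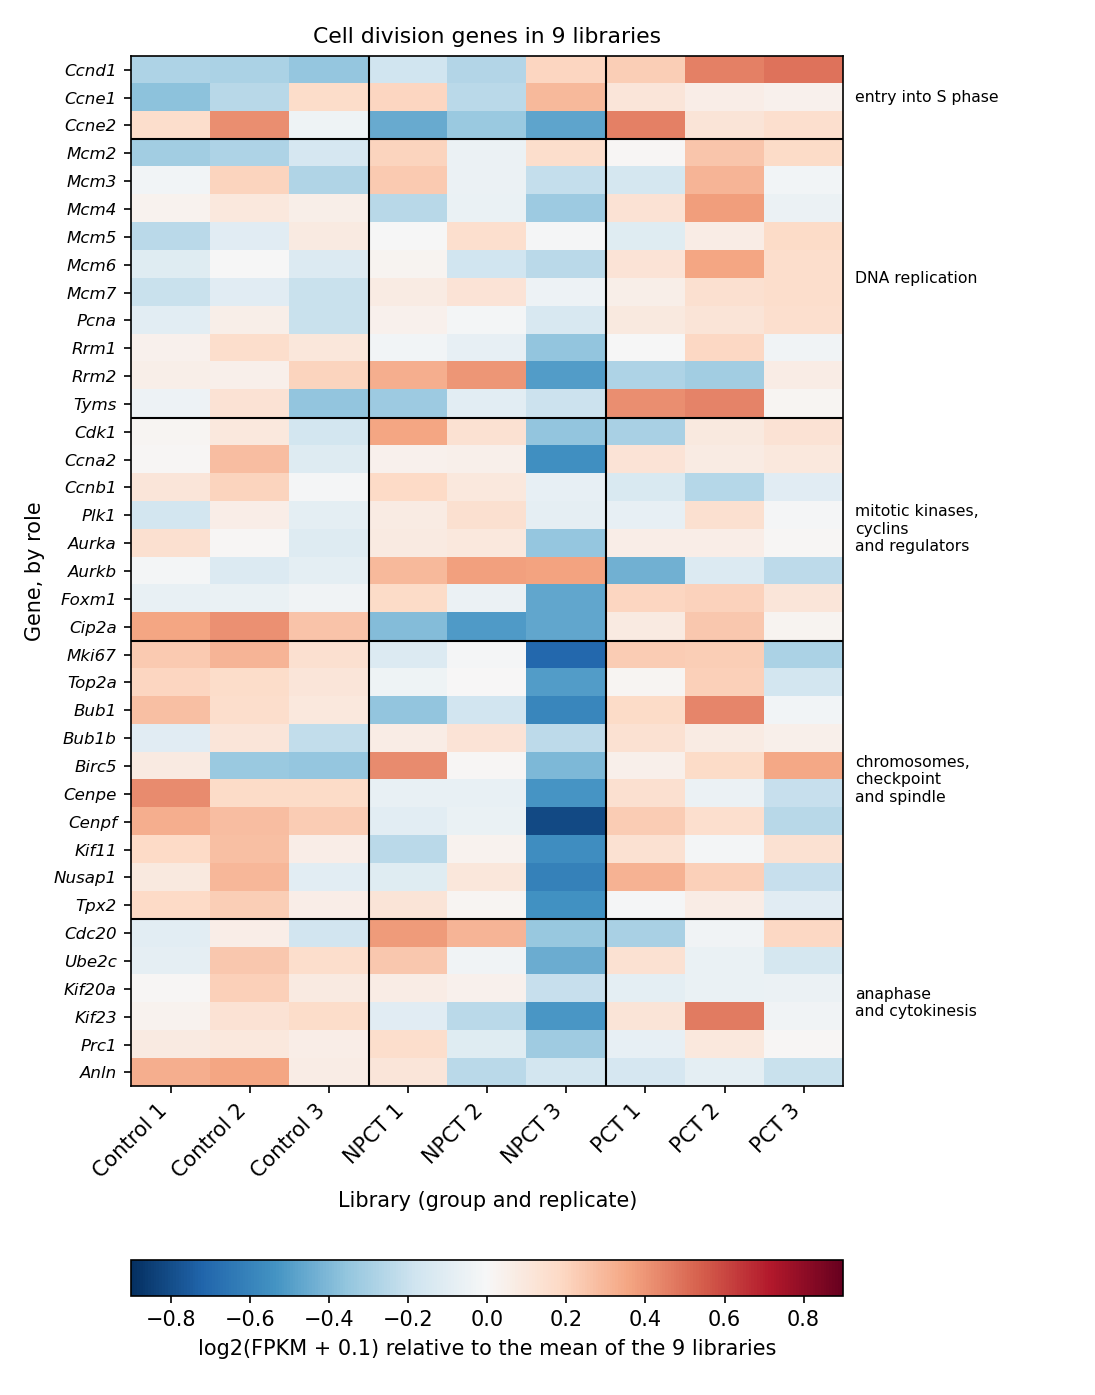
Heat map of the 37 cell division genes (rows, by role) in the 9 libraries (columns), with colour giving log2(FPKM + 0.1) relative to the gene's mean over the 9 libraries. NPCT replicate 3 was the lowest of the 9 libraries in 24 of the 37 genes, and the genes of chromosomes, checkpoint and spindle were lower there in 10 of 10 than in the other NPCT libraries.

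NPCT was first set against Control, to see what the peptide did to these genes. Of the 37 members, 24 had a lower and 13 a higher mean (23 and 13 without Cip2a). The median log2 fold change, Cip2a included, was -0.11 against 0.01 over all genes tested. Over all genes 0.219% were DEGs (35 of 15958, of which 24 were higher), a count that was 0 without NPCT replicate 3 and 562 without PCT replicate 3. Cip2a was among the 35, but it was selected on this contrast and nothing is read from its call. Of the other 36 members none was a DEG by limma or by limma-voom on the fragments recovered from the FPKM, and 14 had an unadjusted p under 0.05, against 29.3% of all genes. The 3 NPCT libraries all lay above the controls in 4 of the 36, where 20.0% of all genes did so, and all below in 10, where 20.3% of all genes did so. The members above were Ccnd1, Mcm2, Mcm7 and Aurkb, and those below were Ccne2, Mcm4, Rrm1, Mki67, Top2a, Bub1, Cenpe, Cenpf, Kif11 and Kif23. Without NPCT replicate 3, 19 members, Cip2a among them, had a lower and 18 a higher mean, and the median with Cip2a included was -0.0004.

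With PCT against Control the members were split more evenly, 21 higher and 16 lower, with a median of 0.02 (0.04 without PCT replicate 3) against 0.00 over all genes. A single member was a DEG, Ccnd1, against 2.31% of all genes (368 of 15958, of which 274 were lower), and 8 of 37 had an unadjusted p under 0.05, against 18.9% of all genes. The PCT libraries all lay above the controls in 6 members (Ccnd1, Mcm2, Mcm6, Mcm7, Pcna and Foxm1), where 13.1% of all genes did so. They all lay below in 5 of the 36 members other than Cip2a (Ccnb1, Aurkb, Cenpe, Kif20a and Anln), where 11.9% of all genes did so.

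Set directly against each other at the same dose and time, NPCT gave the lower mean in 27 of 37 members (26 of 36 without Cip2a). The median, Cip2a included, was -0.16 (-0.04 without NPCT replicate 3 and -0.14 without PCT replicate 3) against -0.01 over all genes. The peptides differed beyond the threshold in 2 members, Aurkb and Ccne2, against 5.76% of all genes (919 of 15958, of which 699 were higher with NPCT). Cip2a, selected on the same NPCT libraries, is left out of the following counts. An unadjusted p under 0.05 was found in 10 of 36 members, against 33.1% of all genes. Without PCT replicate 3 the DEGs were 4 of 36 members (11.1%), with Tyms and Bub1 added, against 10.2% of all genes (1623 of 15958).

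**Figure D2:**
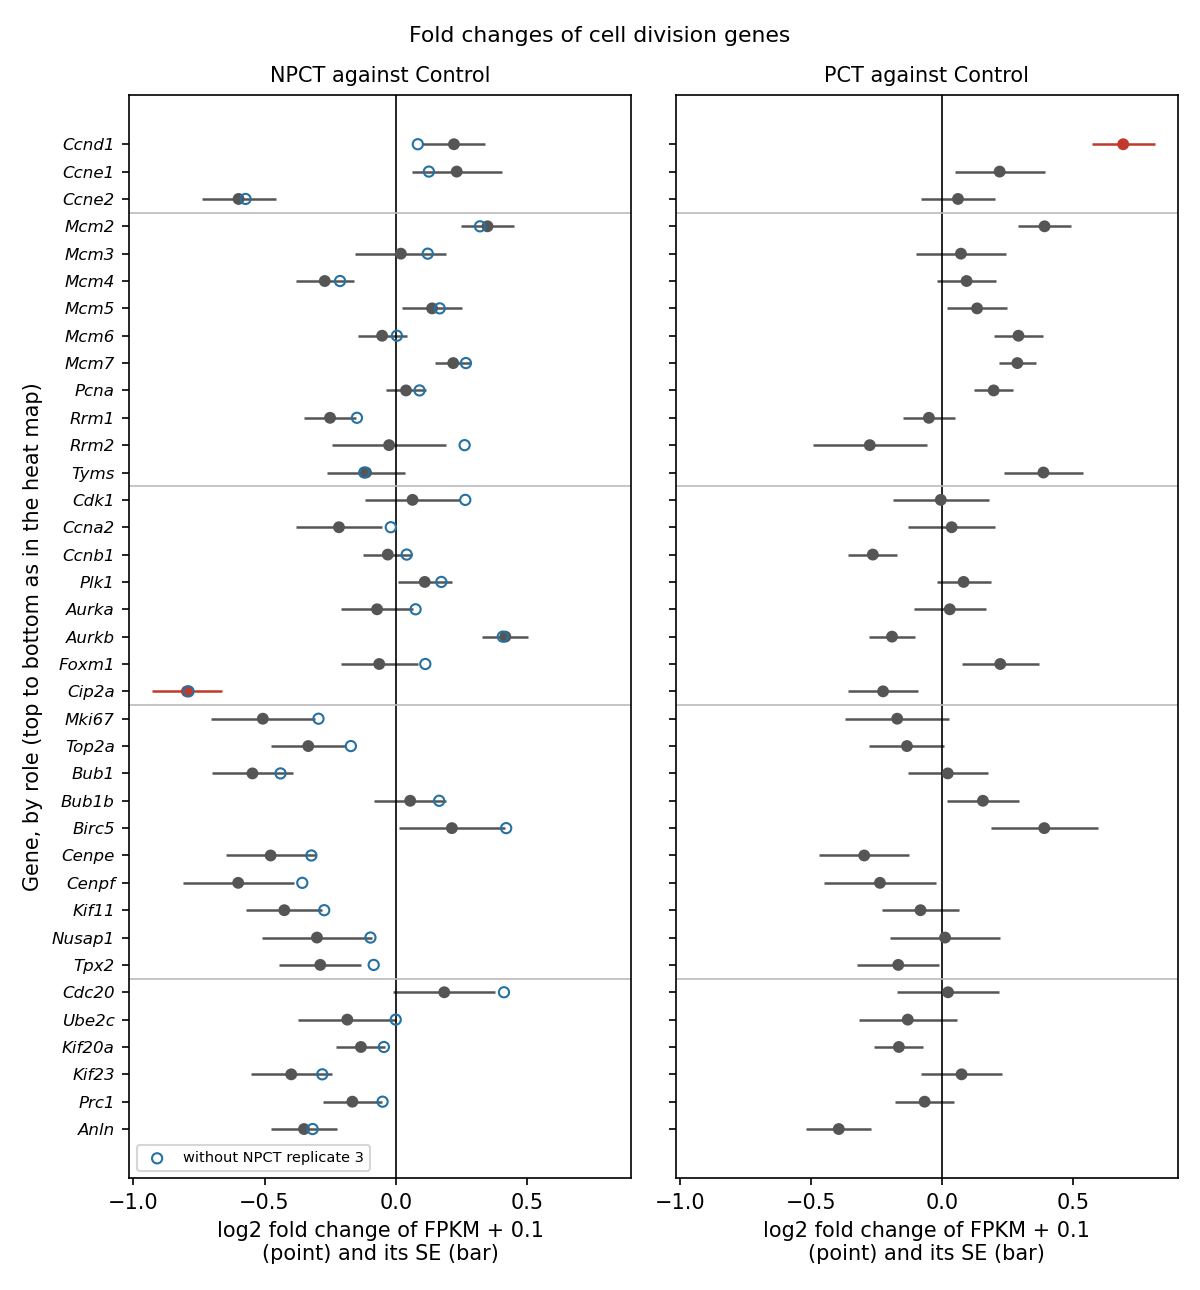
Log2 fold change of FPKM + 0.1 (points) with its standard error (bars) for the 37 genes by role, NPCT against Control on the left and PCT against Control on the right, with DEGs in red and open circles for NPCT without replicate 3. Ccnd1 with PCT lies farthest to the right, at 0.69, and Cip2a with NPCT farthest to the left, at -0.80, and most open circles lie to the right of the filled points.

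The genes of entry into S phase came first. Ccnd1 (ENSRNOG00000020918, chromosome 1 from 218090750 to 218100325 on Rnor_6.0) encodes cyclin D1, which with Cdk4 and Cdk6 phosphorylates the retinoblastoma protein and so frees E2F. Its FPKM was 21.0, 20.9 and 20.1 in Control, 22.5, 21.3 and 29.2 with NPCT and 29.8, 34.95 and 35.8 with PCT. The PCT libraries were the 3 highest of the 9 and NPCT replicate 3 came close to them. Ccnd1 rose with PCT from 20.7 ± 0.529 to 33.5 ± 3.26 (log2 fold change 0.69, SE 0.12, adjusted p = 0.0160). This call was lost when Control replicate 1, 2 or 3 or PCT replicate 2 was left out, with an adjusted p of up to 0.0684. With NPCT the difference from Control was 0.22 (adjusted p = 0.248), or 0.08 without NPCT replicate 3. Ccnd1 was lower with NPCT than with PCT by less than 1.5-fold (log2 fold change -0.47, adjusted p = 0.0317), and by -0.61 (adjusted p = 0.0101) without NPCT replicate 3.

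Ccne1 and Ccne2 encode the E cyclins, which activate Cdk2 at the start of DNA synthesis. Ccne2 (ENSRNOG00000008055, chromosome 5 from 24434872 to 24446406) had an FPKM of 6.03, 7.23 and 5.23 in Control, 3.90, 4.26 and 3.85 with NPCT and 7.42, 5.83 and 5.99 with PCT. The 3 NPCT libraries were the lowest of the 9, with a gap to all others. Ccne2 was lower with NPCT (4.002 ± 0.223) than with PCT (6.41 ± 0.872), with a log2 fold change of -0.66 (SE 0.14, adjusted p = 0.0181), a call that held in 6 of 9 fits with a library left out (adjusted p up to 0.0612) and was lost without NPCT replicate 1, NPCT replicate 3 or PCT replicate 1. With a pseudocount of 1 the difference of -0.56 was under 1.5-fold. Against Control it was -0.60 (SE 0.14) with an adjusted p of 0.0540, just above the threshold. It passed in 2 of 9 fits with a library left out, those without PCT replicate 1 (adjusted p = 0.0479) or PCT replicate 3 (0.0239). It did not pass when a Control library, an NPCT library or PCT replicate 2 was left out (0.0608 to 0.171). Of the 10 other alternatives it passed in 4, a fit blocked by replicate number (0.0472) and 3 more (0.0266 to 0.0490). With limma-voom the difference of -0.57 was under 1.5-fold. The gene overlaps Ints8 on the opposite strand, and strand was not stated for the counting, so their reads may be mixed. Its sister Ccne1 showed no such pattern, at 5.01 ± 1.04 in Control, 5.90 ± 1.12 with NPCT and 5.77 ± 0.144 with PCT, with overlapping groups.

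**Figure D3:**
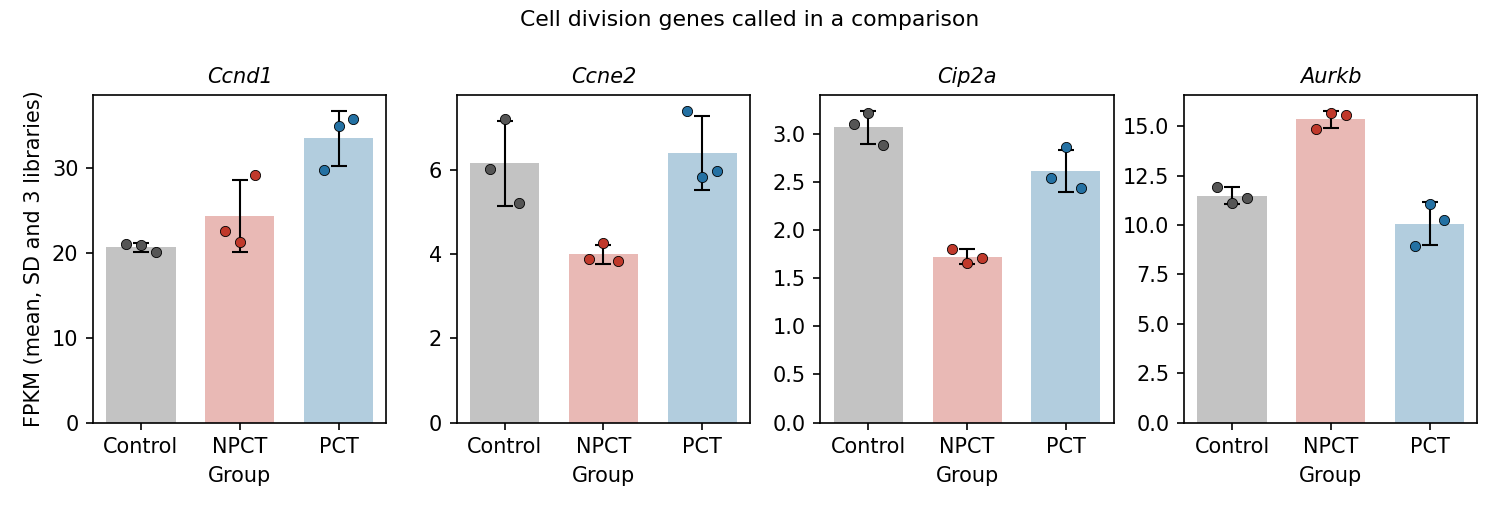
FPKM of Ccnd1, Ccne2, Cip2a and Aurkb, with bars for the mean of 3 libraries, error bars for the SD and points for the single libraries of Control, NPCT and PCT. Ccnd1 is highest with PCT (33.5), Ccne2 and Cip2a are lowest with NPCT (4.002 and 1.73) and Aurkb is highest with NPCT (15.4).

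The 10 genes of DNA replication were split with NPCT, with 5 higher and 5 lower and a median of -0.003 (0.11 without NPCT replicate 3). With PCT 8 of 10 were higher, with a median of 0.16. None was a DEG in any comparison by limma or limma-voom. Of the 10, 4 with NPCT, 5 with PCT and 3 between the peptides had an unadjusted p under 0.05, where 29.3%, 18.9% and 33.1% of all genes had one. Mcm2 to Mcm7 encode the 6 subunits of the helicase, which load as a single ring at origins. Against Control none of the 6 genes passed the test, and in their means 4 were higher and 2 lower with NPCT and 6 higher with PCT. Mcm2 (ENSRNOG00000016316) had an FPKM of 7.64, 7.82 and 8.54 in Control, 10.9, 9.14 and 10.6 with NPCT and 9.55, 11.3 and 10.7 with PCT. Every treated library of either peptide lay above every control, with differences of 0.35 (SE 0.10, adjusted p = 0.0693) and 0.39 (SE 0.10, adjusted p = 0.0659). Mcm7 (ENSRNOG00000001349) gave the same picture, at 15.1, 16.1 and 15.02 in Control, 18.2, 18.9 and 16.8 with NPCT and 18.0, 19.1 and 19.4 with PCT. Its differences were 0.22 (adjusted p = 0.0848) and 0.29 (adjusted p = 0.0563), and since Mir25, Mir93 and Mir106b lie within the gene on the same strand, reads of their primary transcript cannot be told apart from Mcm7.

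Mcm4 (ENSRNOG00000001833) had a lower mean with NPCT, at 19.2, 20.0 and 19.4 in Control, 15.8, 18.0 and 14.9 with NPCT and 20.5, 24.4 and 18.1 with PCT. The NPCT libraries were the 3 lowest, with a difference of -0.27 (adjusted p = 0.145) from Control and -0.36 (adjusted p = 0.0552) from PCT. Mcm6 was 15.1 ± 0.710 in Control, 14.6 ± 1.47 with NPCT and 18.5 ± 1.65 with PCT. It did not pass the test with PCT against Control (0.29, adjusted p = 0.128), and was lower with NPCT than with PCT by less than 1.5-fold (-0.34, adjusted p = 0.0392). Mcm3 and Mcm5 overlapped between all groups, with differences from Control between 0.02 and 0.14.

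Pcna, the clamp that holds DNA polymerase on its template, had the highest level of all members at 64.1 ± 5.71 in Control, 65.7 ± 4.25 with NPCT and 73.2 ± 1.46 with PCT. Its PCT libraries, at 71.9, 73.1 and 74.8, all lay above the highest control of 70.1, although the difference of 0.20 did not pass the test (adjusted p = 0.197). The subunits of ribonucleotide reductase, which makes the DNA precursors, were spread differently over the libraries. Rrm1 was 21.5 ± 0.894, 18.1 ± 2.18 and 20.8 ± 1.75, with NPCT replicate 3 lowest at 15.7. Rrm2 was spread widest with NPCT, at 22.3, 23.5 and 12.5, so that its difference from Control was -0.03 with all libraries and 0.26 without replicate 3. Tyms, the thymidylate synthase, was 12 ± 2.00 in Control, 11.0 ± 0.874 with NPCT and 15.7 ± 2.49 with PCT, a difference between the peptides of -0.50 (adjusted p = 0.0522), or -0.64 (adjusted p = 0.0106) without PCT replicate 3.

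The 8 mitotic kinases, cyclins and regulators, Cip2a included, had medians of -0.05 with NPCT (0.09 without replicate 3) and 0.01 with PCT (-0.02 without PCT replicate 3). Aurkb (ENSRNOG00000005659, chromosome 10 from 55626741 to 55634991) encodes Aurora B, the kinase that corrects faulty attachments of chromosomes to the spindle. Its FPKM was 11.9, 11.1 and 11.4 in Control, 14.9, 15.7 and 15.6 with NPCT and 8.92, 11.1 and 10.2 with PCT. The 3 NPCT libraries were the highest of the 9 and lay close together, replicate 3 included. Aurkb was higher with NPCT (15.4 ± 0.431) than with PCT (10.1 ± 1.09), with a log2 fold change of 0.61 (SE 0.09, adjusted p = 0.00411), a call kept in 8 of 9 fits with a library left out. Without PCT replicate 1 the difference of 0.52 was under 1.5-fold, as was that of 0.57 with a pseudocount of 1. Against Control it was 0.42 (adjusted p = 0.0509) with NPCT and -0.19 (adjusted p = 0.281) with PCT. The table gives this gene a length of 4404 bases. Its partner in the chromosomal passenger complex, Birc5 (survivin), was 9.65 ± 1.73, 11.4 ± 3.27 and 12.6 ± 1.35 in the 3 groups, with overlapping libraries. Birc5 overlaps AABR07030866.1 on the opposite strand.

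Cip2a (ENSRNOG00000039183, chromosome 11 from 54377374 to 54404612) encodes an inhibitor of the phosphatase PP2A that helps hold broken mitotic chromosomes together. Its FPKM was 3.10, 3.22 and 2.88 in Control, 1.81, 1.66 and 1.71 with NPCT and 2.54, 2.86 and 2.44 with PCT. The 3 NPCT libraries lay well below all others, and the PCT libraries lay between NPCT and Control. The log2 fold change of NPCT against Control, on which the gene was selected, was -0.80 (SE 0.13), with as few as 65 fragments in a library. It lay between -0.84 and -0.76 with a library left out. The gene overlaps Dzip3 on the opposite strand.

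Cdk1, the kinase that drives mitosis, was 13.8 ± 1.25, 14.6 ± 3.53 and 13.8 ± 2.10, with 17.8 in NPCT replicate 1 and 10.8 in NPCT replicate 3 as the extremes of the 9 libraries. Its cyclins are Ccna2 and Ccnb1. Ccna2 was 9.87 ± 1.42, 8.58 ± 1.90 and 10.1 ± 0.166, with NPCT replicate 3 lowest at 6.38, and it overlaps Exosc9 on the opposite strand. Ccnb1 was 11.9 ± 0.869, 11.7 ± 1.06 and 9.89 ± 0.543, with every PCT library below every other library (PCT against Control -0.26, adjusted p = 0.159). Plk1 and Aurka, kinases of spindle assembly, differed from Control by no more than 0.11 in size with either peptide. Without NPCT replicate 3 they differed by 0.17 and 0.08 with NPCT. Foxm1, the transcription factor of the G2 and M phase genes, was tight in Control at 5.73 ± 0.0716, wide with NPCT at 6.73, 5.72 and 4.28, and 6.71 ± 0.256 with PCT (0.22, adjusted p = 0.471).

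The 10 genes of chromosomes, checkpoint and spindle had the lowest median with NPCT among the 5 roles, -0.38, with 8 of 10 lower and 6 with all NPCT libraries below the controls (20.3% of all genes). The median was -0.22 without NPCT replicate 3, still with 8 of 10 lower. With PCT it was -0.11 (-0.02 without PCT replicate 3), with 6 of 10 lower, and 10 of 10 were lower with NPCT than with PCT (7 of 10 without NPCT replicate 3). None was a DEG in any comparison by limma or limma-voom, and 6 with NPCT, 0 with PCT and 2 between the peptides had an unadjusted p under 0.05, against 29.3%, 18.9% and 33.1% of all genes. The summed FPKM of the 10 genes was 69.6 to 78.1 in Control, 70.0, 69.1 and 47.3 in the NPCT libraries 1 to 3, and 67.1 to 77.1 with PCT, so that replicate 3 alone lay far from the rest.

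In this role Birc5 and Bub1b had higher means with NPCT than in Control, with differences of 0.21 and 0.05. Cenpf (ENSRNOG00000003388, chromosome 13 from 108132499 to 108178609), a large protein of the kinetochore, had the lowest fold change of this role with NPCT. Its FPKM was 4.95, 4.79 and 4.60 in Control, 3.67, 3.75 and 2.19 with NPCT and 4.61, 4.37 and 3.28 with PCT. All NPCT libraries lay below the controls, with replicate 3 much the lowest, and the difference was -0.60 (SE 0.21, adjusted p = 0.105), or -0.36 without replicate 3. Mki67 (ENSRNOG00000028137, chromosome 1 from 207993895 to 208020454) was alike at 8.97, 9.42 and 8.42 in Control, 6.98, 7.55 and 4.63 with NPCT and 8.92, 8.91 and 6.24 with PCT. Its difference with NPCT was -0.51 (SE 0.20, adjusted p = 0.129), or -0.29 without replicate 3, and -0.17 with PCT, where replicate 3 was again the lowest and without which the difference was -0.001. Cenpe, the kinesin that carries chromosomes to the spindle equator, was 3.65 ± 0.396, 2.61 ± 0.476 and 2.96 ± 0.376, with every library of either peptide below every control.

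Bub1 (ENSRNOG00000032778), a kinase of the spindle checkpoint, had an FPKM of 4.69, 4.35 and 4.15 in Control, 3.01, 3.43 and 2.55 with NPCT and 4.38, 5.29 and 3.82 with PCT. The NPCT libraries were the 3 lowest, and here replicates 1 and 2 also lay well below the controls, with a difference of -0.55 (SE 0.15, adjusted p = 0.0672), or -0.44 without replicate 3. Against PCT it was -0.57 (adjusted p = 0.0382), which is under 1.5-fold, or -0.68 (adjusted p = 0.0146) without PCT replicate 3. Its relative Bub1b, another checkpoint protein, was at 3.43 ± 0.416, 3.57 ± 0.472 and 3.81 ± 0.136. Top2a, the topoisomerase that untangles sister chromatids, was 17.1 ± 0.519, 13.7 ± 2.53 and 15.6 ± 2.08, and Kif11, the motor that pushes the spindle poles apart, 7.16 ± 0.524, 5.37 ± 1.11 and 6.75 ± 0.426. Both had all NPCT libraries below the controls. The differences were -0.33 (adjusted p = 0.159) and -0.42 (adjusted p = 0.0991), or -0.17 and -0.27 without NPCT replicate 3. Nusap1 and Tpx2, which stabilise spindle microtubules, differed by -0.30 and -0.29 with all libraries and by -0.10 and -0.08 without NPCT replicate 3. Tpx2 overlaps RF01233 on the opposite strand.

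The 6 genes of anaphase and cytokinesis had medians of -0.18 with NPCT (-0.05 without replicate 3) and -0.10 with PCT. None was a DEG by limma or limma-voom in any comparison, and 2 with NPCT, 1 with PCT and 1 between the peptides had an unadjusted p under 0.05, against the same shares of all genes. Kif23, a motor of the central spindle, was 5.29, 5.66 and 5.80 in Control, 4.82, 4.34 and 3.56 with NPCT and 5.603, 7.18 and 5.04 with PCT. Its NPCT libraries were the 3 lowest (-0.40 against Control, adjusted p = 0.128, and -0.47 against PCT, adjusted p = 0.0675). Anln, which organises the contractile ring, was 6.10 ± 0.650 in Control, 4.77 ± 0.640 with NPCT and 4.60 ± 0.185 with PCT, with all PCT libraries below the controls (-0.39, adjusted p = 0.121). Cdc20, the activator of the anaphase promoting complex, was 8.99 ± 0.740, 10.4 ± 2.65 and 9.196 ± 1.53, with 12.3 and 11.6 in NPCT replicates 1 and 2 but 7.42 in replicate 3. Ube2c is the ubiquitin enzyme of that complex, Prc1 bundles the central spindle, and Kif20a is a motor of cytokinesis. They differed from Control by -0.19 to -0.07 with either peptide. With NPCT and without replicate 3 the differences were -0.0004, -0.05 and -0.05. Kif20a overlaps Cdc23 on the opposite strand.

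NPCT replicate 3 was examined by itself because so many values turned on it. It was lower than the mean of NPCT replicates 1 and 2 in 32 of 37 members (86.5%), by a median of -0.32, where 48.8% of all genes were lower and the median was 0.01. The median was -0.55 in chromosomes, checkpoint and spindle (10 of 10 lower), -0.35 in anaphase and cytokinesis (6 of 6), -0.33 in mitotic kinases, cyclins and regulators (7 of 8) and -0.16 in DNA replication (8 of 10). In entry into S phase 1 of 3 was lower and the median was 0.32. The 5 members that were not lower were Ccnd1, Ccne1, Mcm2, Tyms and Aurkb. It was the lowest of the 9 libraries in 24 of 37 members, against 17.9% of all genes. The level of the members, their median log2 value after subtracting each gene's 9-library mean, was -0.35 there and between -0.02 and 0.13 in the other 8 libraries.

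Markers of other cells also stood apart in that library. The 11 microglia markers tested summed to an FPKM of 159.3 in NPCT replicate 3 against 37.7 and 43.5 in the other NPCT libraries, 30.7 to 41.4 in Control and 12.9 to 16.5 with PCT. They were 11 of 11 lower with PCT than in Control, with a median of -1.63, and 5 were DEGs, led by Cx3cr1 (-2.57, adjusted p = 0.00402), Spi1 (-1.63, adjusted p = 0.0183) and Aif1 (-2.23, adjusted p = 0.0331). The call of Cx3cr1 held in 9 of 9 fits with a library left out, that of Spi1 in 5 (lost without PCT replicate 2 or any control) and that of Aif1 in 5 (lost without Control replicate 1 or 3 or PCT replicate 2 or 3). Limma-voom called Cx3cr1 and Spi1 but not Aif1. With NPCT the median was 0.49, or -0.01 without replicate 3. Between the peptides 8 of 11 were DEGs, all higher with NPCT (median 2.13, or 1.61 without NPCT replicate 3), led by Cx3cr1 (3.004, adjusted p = 0.00145), Spi1 (1.97, adjusted p = 0.00443) and Aif1 (2.85, adjusted p = 0.00695). The library with the most microglial RNA had the lowest level of mitotic genes. The PCT libraries, with the least, had levels of members between 0.01 and 0.11. In these, mitotic kinases, cyclins and regulators lay between -0.009 and 0.08, and chromosomes, checkpoint and spindle between -0.13 and 0.16. Anaphase and cytokinesis lay between -0.08 and -0.04. The part of microglia in these levels was not tested.

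The progenitor list holds genes used as markers of radial glia and other cells that can divide. Which cells expressed them in these cultures was not measured. With NPCT 10 of 10 markers tested were higher, with a median of 0.39 (0.33 without replicate 3). None was a DEG by limma, 7 had an unadjusted p under 0.05 (29.3% of all genes did), and limma-voom called Nes. Their summed FPKM was 2231 to 2288 with NPCT against 2002 to 2123 in Control and 1481 to 1662 with PCT, without overlap, but Fabp7 made up 90.2% of this sum. The other progenitor markers summed to 234.2 to 245.7 with NPCT, 175.0 to 177.4 in Control and 148.4 to 191.1 with PCT, so that NPCT lay above and PCT overlapped Control. Eomes, the marker of neuronal precursors, was near 0 in every group. With PCT 7 of 10 were lower, with a median of -0.21. Hopx fell from 30.9 ± 1.2 to 18.9 ± 3.84 (-0.73, adjusted p = 0.0285), and Nes, which encodes a filament protein, rose from 5.89 ± 0.261 to 10.8 ± 2.99 (0.83, adjusted p = 0.0498). With a library left out, the call of Hopx held in 4 of 9 fits (lost without PCT replicate 1 or 2 or any control) and that of Nes in 2 of 9 (kept without PCT replicate 1 or NPCT replicate 3). Hopx was also higher with NPCT than with PCT (1.197, adjusted p = 0.00236). How far progenitors bear on the members was not tested.

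Astrocyte markers summed to 2516 to 2702 in Control, 2459 to 2718 with NPCT and 2149 to 2224 with PCT, where 6 of 10 were DEGs and lower, led by Aldoc (-0.83, adjusted p = 0.000536), Aldh1l1 (-0.83, adjusted p = 0.00374) and Aqp4 (-0.64, adjusted p = 0.00408, under 1.5-fold without PCT replicate 3). Gfap, which made up 34.3% of the sum, was 918.8 ± 17.2 with PCT against 775.7 ± 48.1 in Control, with every PCT library above every control, and the other 9 markers summed to 1223 to 1303 with PCT against 1782 to 1873 in Control. Between the peptides 3 of 10 were DEGs, all higher with NPCT (Aldoc 0.88, adjusted p = 0.000307, Aldh1l1 1.13, adjusted p = 0.000544, and S100b 0.82, adjusted p = 0.00276). Oligodendrocyte lineage markers summed to 504.6 to 533.5 in Control, 555.8 to 590.2 with NPCT and 481.0 to 489.4 with PCT, and their medians were 0.28 with NPCT and 0.19 with PCT. Olig1 made up 46.6% of this sum, and the other 9 summed to 246.1 to 256.0, 282.5 to 318.9 and 286.0 to 299.6, with both peptides above Control. Neuron markers summed to 2371 to 2460, 2224 to 2295 and 2330 to 2560, with medians of -0.21 and -0.07. Neither list held a DEG by limma or limma-voom, although 5 and 3 of 10 oligodendrocyte lineage markers and 8 and 4 of 12 neuron markers had an unadjusted p under 0.05 with NPCT and PCT, against 29.3% and 18.9% of all genes. Endothelial markers summed to no more than 2.26 in any library, and pericyte and fibroblast markers to 45.3 to 53.2, 49.6 to 61.1 and 46.7 to 55.1. Thy1 made up 64.8% of the latter sum. The other 8 summed to 15.6 to 18.9 in Control, 14.6 to 16.6 with NPCT and 16.7 to 25.8 with PCT. Of the pericyte and fibroblast markers, Col3a1 rose with PCT from 2.33 ± 0.329 to 4.41 ± 1.01 (0.87, adjusted p = 0.0413), a call kept in 1 of 9 fits with a library left out (without PCT replicate 1), and it was lower with NPCT than with PCT (-0.90, adjusted p = 0.0185; lost without NPCT replicate 2 or 3 or PCT replicate 2). Mitochondrial fragments made up 5.18% to 5.84% of a library in Control, 3.70% to 4.17% with NPCT and 4.11% to 6.21% with PCT. The part of these cells and of the mitochondrial share in the members' values was not tested.

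**Figure D4:**
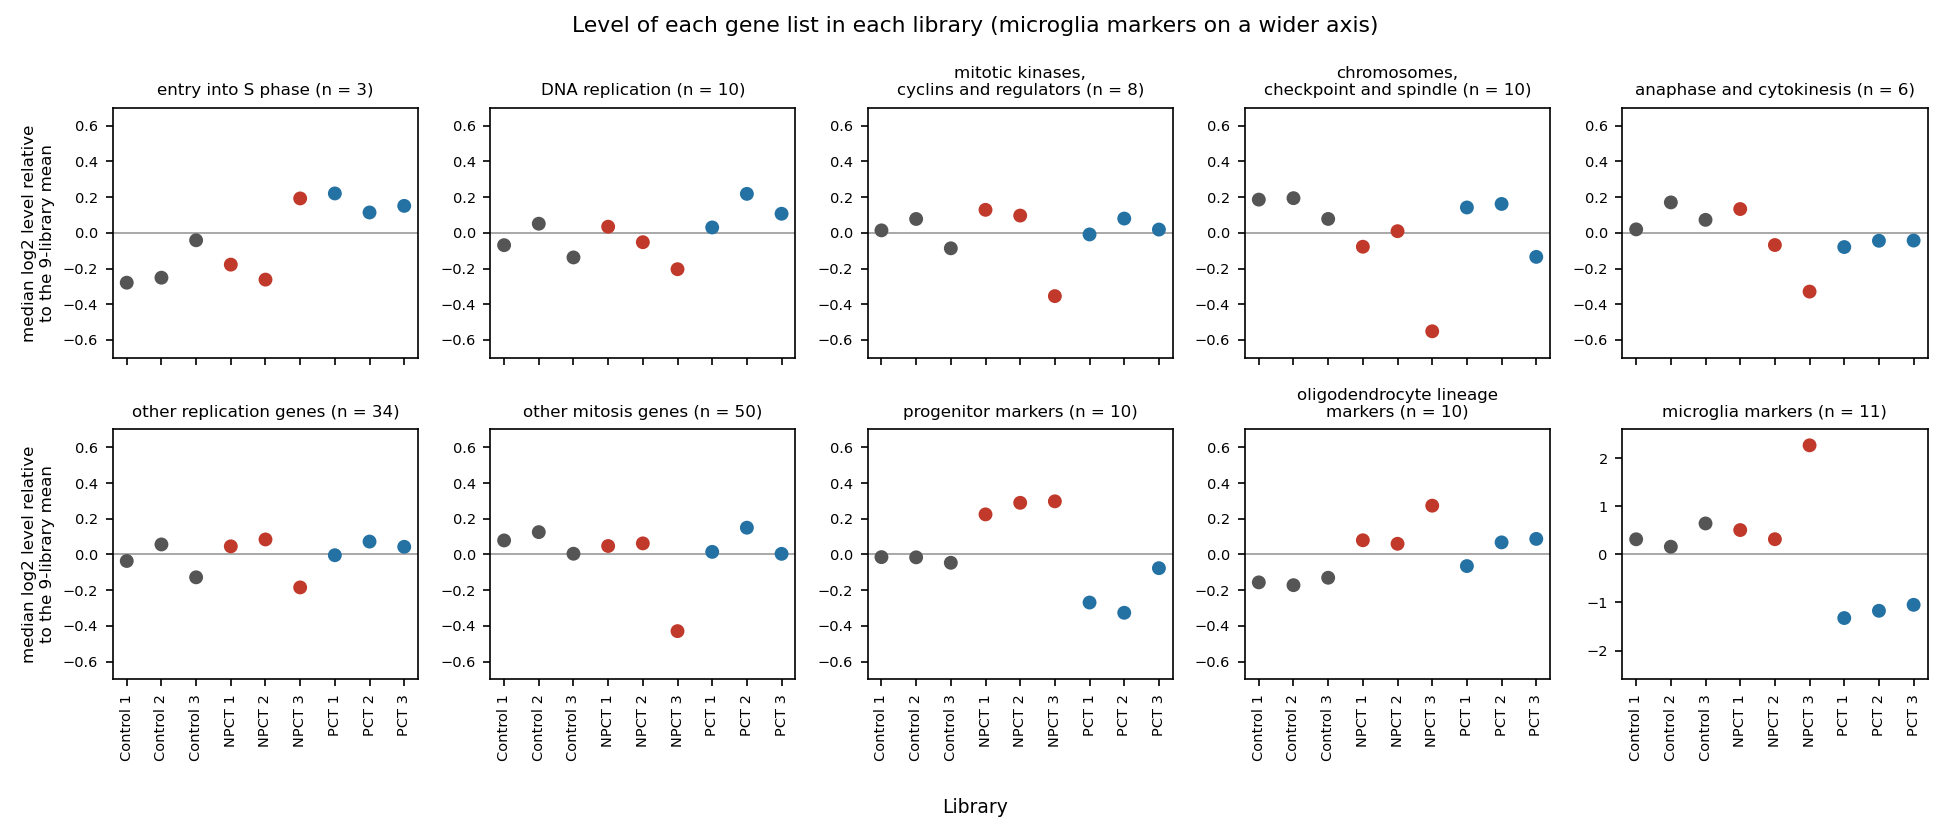
Median log2 level of each gene list relative to the mean of the 9 libraries (y axis) in each library (x axis; Control grey, NPCT red, PCT blue), with the 5 roles above and other lists below, microglia markers on a wider axis. NPCT replicate 3 stands at -0.55 in the genes of chromosomes, checkpoint and spindle, at -0.43 in the other mitosis genes and at 2.27 in the microglia markers.

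Other genes of the same pathway were taken from lists written with the members. Of 50 other mitosis genes, 36 were lower with NPCT than in Control, with a median of -0.18 (-0.04 without NPCT replicate 3). None was a DEG by limma, 10 had an unadjusted p under 0.05 (29.3% of all genes did), and limma-voom called Knl1, a kinetochore scaffold. Their summed FPKM was 213.3 in NPCT replicate 3 against 284.4 and 286.5 in the other NPCT libraries and 273.4 to 299.5 in Control. With PCT 29 of 50 were lower, with a median of -0.01. Gtse1, a mitotic microtubule protein that restrains p53, was the single DEG of this list, lower with NPCT (7.98 ± 0.839) than with PCT (12.1 ± 1.04; log2 fold change -0.59, SE 0.10, adjusted p = 0.00807). The call was lost without NPCT replicate 2 or PCT replicate 2 and with limma-voom.

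Of 36 other replication genes 34 were tested, and none was a DEG by limma in any comparison. An unadjusted p under 0.05 was found in 3 with NPCT, 1 with PCT and 6 between the peptides, against 29.3%, 18.9% and 33.1% of all genes, and limma-voom called Fen1, the flap endonuclease, with NPCT. With NPCT 18 were higher and 16 lower, with a median of 0.04 (0.14 without NPCT replicate 3), and with PCT 25 of 34 were higher, with a median of 0.09. Of 24 G1 cyclins, CDKs and CDK inhibitors, 15 were higher with PCT, with a median of 0.05, and 11 were higher with NPCT, with a median of -0.01. Cdkn1c, which encodes the CDK inhibitor p57, was the single DEG by limma, and limma-voom also called Cdkn1a, the inhibitor p21, with PCT. The FPKM of Cdkn1c was 8.75, 6.34 and 6.97 in Control, 9.0, 9.14 and 13.2 with NPCT and 12.5, 14.1 and 13.8 with PCT, and it rose with PCT (0.88, SE 0.16, adjusted p = 0.0229). The call was lost without Control replicate 2 or 3 or PCT replicate 2 (adjusted p up to 0.0882). Cyclin D1 and this inhibitor of the cell cycle were both higher with PCT.

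The members differ in length, and their fold changes with NPCT went with it. The median length was 3027 bases (873 to 10069) against 2136 for all genes tested. Across the 37 members, the log2 fold change of NPCT against Control correlated with log2 length at -0.49 by Pearson and -0.49 by Spearman, where all 15958 genes gave -0.11 and -0.22. Genes are not independent replicates and share the same 9 libraries, so no p is given. The values were -0.49 and -0.53 without NPCT replicate 3, -0.31 and -0.30 for PCT against Control, and -0.08 and -0.09 for the departure of NPCT replicate 3 from the other NPCT libraries. The longest members, Cenpf, Mki67, Cenpe and Top2a, were all lower with NPCT in their means, and the shortest, Birc5, was higher. After each library's trend with length over all genes had been removed, the correlations of the members were -0.41 and -0.45, the median of the members with NPCT was -0.13, and that of chromosomes, checkpoint and spindle -0.35.

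**Figure D5:**
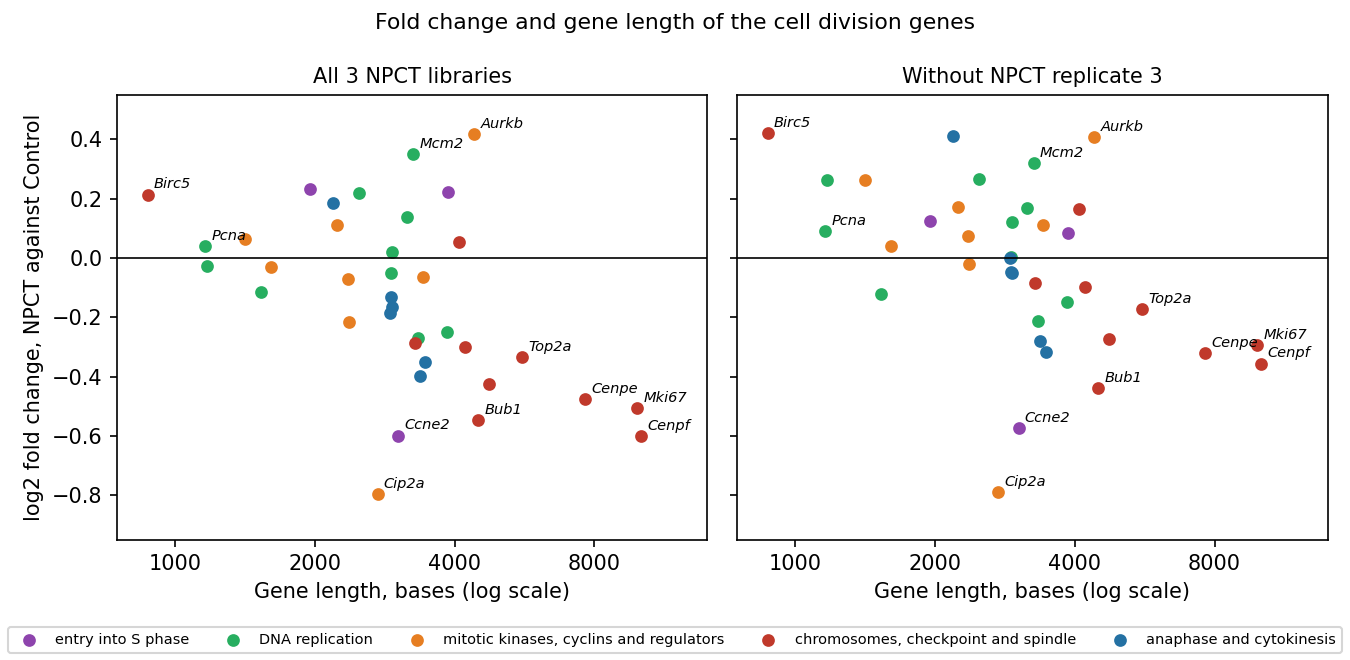
Log2 fold change of NPCT against Control (y axis) by gene length in bases (x axis, log scale) for the 37 genes, coloured by role, with all 3 NPCT libraries on the left and without replicate 3 on the right. The longest genes, Cenpf and Mki67, lie at -0.60 and -0.51 on the left and at -0.36 and -0.29 on the right, while Aurkb, of 4404 bases, stays at about 0.41.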

How the data were processed

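The methods and the submitters' processing notes name HISAT2 2.0.5, featureCounts 1.5.0-p3, StringTie 1.3.3b, DESeq2 1.20.0 and the build Rnor_6.0. The authors counted fragments per gene, converted them to FPKM and deposited these values, unlogged and with gene lengths, for all 9 libraries. FPKM times length gave whole fragments in all values above 0, with a tolerance of 0.01 at low counts that widened with the count at high ones. Gene positions are on Rnor_6.0, promoters are from RefSeq on GRCr8.

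Since the values are FPKM, log2(FPKM + 0.1) was fitted in R 4.3.3 (limma 3.58.1) with a mean for each group, all 9 libraries together, a prior variance with intensity trend and Benjamini-Hochberg adjustment over 15958 genes of mean FPKM of at least 0.5. The procedure was tested on simulated data, with no outcome given here, so nothing is read from that test. Members and gene lists were chosen with earlier results of these data known, so list counts and medians are descriptions. All 37 members in the table were named, and of the other lists up to 3 DEGs per comparison and direction with the smallest adjusted p and the most abundant marker. Alternatives were 2 other pseudocounts, 2 other filters, quantile and median-ratio scaling, only the 2 groups compared, a replicate block, removal of the gene length trend, limma-voom on the recovered fragments and each library left out. Tables and figures were made in Python 3.11.15 with pandas 2.3.3 and matplotlib 3.10.9.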

Additional observations from a re-analysis of the deposited data

How the results depend on the processing

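Directions of the members' medians were kept under all 10 alternatives other than leaving out a library, and no called value reversed. The 35 DEGs between NPCT and Control became 208 with a mean FPKM of at least 1, 9 with no filter on low values, 189 with quantile normalization, 579 with only the 2 groups compared, 3 with the gene length trend removed and 391 with limma-voom on recovered fragments. The members called there were 0 with a pseudocount of 1, with no filter and with the length trend removed. The shares of all genes called in these settings were 0.269%, 0.0383% and 0.0188%. A mean FPKM of at least 1, quantile normalization and only the 2 groups compared each gave 2 members. They were Ccne2, and Cip2a, which was selected on this contrast. The shares of all genes called with these were 1.43%, 1.18% and 3.63%. Between NPCT and PCT the members called were 0 with a pseudocount of 1 (Aurkb and Ccne2 lost) and 4, Cip2a included, with quantile normalization, where 4.67% and 5.40% of all genes were DEGs, and the DEGs were 454 with only the 2 groups compared. The cause of these shifts was not tested.

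With the replicate number as a block, NPCT against Control gave 319 DEGs (2.00% of all genes) and 2 members called (Cip2a and Ccne2). The 323 and 886 DEGs in the other comparisons stayed close to the 368 and 919 without the block. The numbers were not treated as pairs, since departures of libraries with the same number correlated by only -0.07 to 0.03.

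Leaving out a library in turn gave 0 to 562 DEGs for NPCT against Control. There were 562 without PCT replicate 3, 220 without PCT replicate 1 and 0 to 2 without each of the other libraries. The members called were 2, Cip2a and Ccne2, without PCT replicate 1 or PCT replicate 3, and otherwise 0. The shares of all genes called in those fits were 1.38% and 3.52%. The median of members, Cip2a included, was -0.18 to -0.0004. For PCT against Control there were 172 to 398 DEGs (1.08% to 2.49% of all genes) and 0 to 1 members called. The median was -0.05 to 0.08, turning below 0 without Control replicate 3 (-0.05) or PCT replicate 2 (-0.04). For NPCT against PCT there were 525 to 1623 DEGs (3.29% to 10.2% of all genes), 0 to 5 members called (Cip2a included) and a median of -0.25 to -0.04. The span of the members' level over the libraries, 0.48, was 0.15 to 0.51, and 0.15 without NPCT replicate 3. Of the single members' values under the alternatives, 2004 kept their direction and their side of the threshold. Another 69 that passed in neither fit changed sign (0.18 or less in size as reported). A call was lost in 20 and gained in 15. The lost calls included those of Cip2a with NPCT against Control, on which it was selected. The gained calls included those of Cip2a between the peptides. The remaining 1, Cip2a between the peptides with a pseudocount of 1, moved by more than the spread to -0.41.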
